A study of Mus musculus with 6 samples.

Results

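The vascular endothelial growth factor (VEGF) and angiopoietin genes were examined in whole mouse ovaries by RNA-seq. The group held 10 of the 44788 genes in the count table. They were the ligand genes Vegfa, Vegfb and Vegfc, the receptor genes Kdr, Flt1 and Flt4, the angiopoietin genes Angpt1 and Angpt2, the angiopoietin receptor gene Tek and the endothelial junction gene Pecam1. These genes were chosen by symbol from a comparison of the genotypes that was already known, so the CPM values and fold changes that chose them are given here as a description. Whether such a gene passed the threshold of the fit across all genes is stated in the same way, with no p, and nothing rests on it. All 10 passed the filter on low counts, which kept 19423 genes.

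The study compared 3 wild-type (WT) ovaries, labelled replicates 1, 4 and 7, with 3 Bnc1tr/tr ovaries, labelled replicates 1, 2 and 3, all from C57BL/6 J mice aged 8 weeks. Bnc1 encodes the zinc finger protein basonuclin 1, and the Bnc1tr/tr mice were homozygous for a truncation mutation of it. The study describes this mutation as a small deletion in exon 4 that shifts the reading frame to an early stop. It is carried in the germ line, so every cell type of the mutant ovary had it. The study describes its comparisons as made between littermates, but the labels do not say which samples shared a litter, nor whether ovaries were pooled, and the p-values below measure the spread between these 6 ovaries. The stage of the estrous cycle is not given in the sources used here, so whether it differed between the groups is not known. In a separate experiment the study reports a disordered cycle with longer diestrus in Bnc1tr/tr mice.

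VEGF-A, made by granulosa and luteal cells in the ovary, acts on endothelial cells mainly through the receptor VEGFR2, the product of Kdr. Flt1 encodes VEGFR1, which binds VEGF-A tightly and can act as a decoy, and Flt4 encodes VEGFR3, the receptor for VEGF-C on lymphatic endothelium. Angiopoietin 1 activates the receptor TIE2, the product of Tek, and steadies vessels, whereas angiopoietin 2 mostly opposes it. The vessels of the ovary are rebuilt in each cycle, above all when the corpus luteum forms.

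Totals ranged from 25247770 to 34406296 counts per ovary, and each VEGF or angiopoietin gene had between 139 and 11307 reads in each ovary. Counts of ovaries of the same genotype differed 16.7 to 64.0 times as much as counting noise allows (chi-square over its degrees of freedom), so no pair was taken for the same library. Bnc1 itself was at 13.9, 13.4 and 13.1 counts per 1000000 (CPM) in the WT ovaries and 18.7, 13.7 and 11.5 CPM in the Bnc1tr/tr ovaries. The log2 fold change of Bnc1 was 0.12 (SE 0.18, adjusted p = 0.733, edgeR's quasi-likelihood test). Reads summed over the whole gene do not read a small deletion, so Bnc1 RNA did not check the labels.

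The regions before the start sites of 4 genes are shown because their RNAs were all lower in Bnc1tr/tr ovaries. Each one is 250 bases that end just before the annotated start, from RefSeq on GRCm38.p6, written 5′ to 3′ on the strand of the gene. Such windows were found for 7 of the 10 genes, and Angpt1, Angpt2 and Pecam1 had no entry. The second of the windows listed for Vegfa, within the gene at chr17:46025164-46025413, is not printed. The Vegfa window shown lay at chr17:46032378-46032627 on the minus strand, Kdr at chr5:75978456-75978705 on the minus strand, Flt1 at chr5:147726012-147726261 on the minus strand and Tek at chr4:94739039-94739288 on the plus strand. Capitals mark matches, on either strand, to GGGCGG (the GC box), GGAAG (the core of an ETS site), TGACGTCA (the cAMP response element), ACGTG (the core of a hypoxia response element) and TATAAA (the TATA box).
Vegfa: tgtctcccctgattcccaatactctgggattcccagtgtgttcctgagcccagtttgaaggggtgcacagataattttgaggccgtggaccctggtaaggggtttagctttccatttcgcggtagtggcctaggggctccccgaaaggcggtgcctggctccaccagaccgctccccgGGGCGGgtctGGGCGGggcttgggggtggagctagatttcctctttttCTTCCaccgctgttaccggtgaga
Kdr: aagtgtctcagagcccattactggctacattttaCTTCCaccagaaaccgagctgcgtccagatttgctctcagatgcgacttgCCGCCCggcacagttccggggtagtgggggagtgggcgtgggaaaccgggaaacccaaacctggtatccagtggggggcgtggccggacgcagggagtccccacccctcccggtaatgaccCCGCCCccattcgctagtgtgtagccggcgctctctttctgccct
Flt1: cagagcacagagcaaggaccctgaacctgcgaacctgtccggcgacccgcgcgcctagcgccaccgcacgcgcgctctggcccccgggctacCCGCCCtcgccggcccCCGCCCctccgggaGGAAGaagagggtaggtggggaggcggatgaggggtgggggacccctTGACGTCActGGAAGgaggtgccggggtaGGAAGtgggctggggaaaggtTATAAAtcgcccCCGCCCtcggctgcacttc
Tek: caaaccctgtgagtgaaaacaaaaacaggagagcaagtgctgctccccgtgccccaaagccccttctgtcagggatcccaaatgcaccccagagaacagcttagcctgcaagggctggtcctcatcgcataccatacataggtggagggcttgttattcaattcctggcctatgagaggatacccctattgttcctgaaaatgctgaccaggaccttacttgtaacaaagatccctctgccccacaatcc

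The Vegfa window shown and that of Kdr each held 2 GC boxes and 1 ETS core, and the Vegfa window not printed held 1 hypoxia core, 1 GC box and 1 ETS core. Flt1 held 3 GC boxes, 3 ETS cores, 1 cAMP response element and 1 TATA box. The Tek window held none of the 5 motifs. Among 32851 upstream windows of the same length, 32.7% had a GC box, 64.1% an ETS core, 1.55% a cAMP response element, 16.6% a hypoxia core and 12.4% a TATA box. A match is a run of letters only, and no binding was measured.

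Transcripts of Vegfa, Kdr, Flt1, Tek and Pecam1 were lower in Bnc1tr/tr than in WT ovaries, and those of Vegfb, Vegfc, Flt4, Angpt1 and Angpt2 were not called in either direction. A gene was called where its adjusted p in the fit across all genes was under 0.05. Of the 10 genes, 5 were called and all 5 were lower, while 7.06% of all genes tested were called, 4.19% lower and 2.88% higher. Of all calls 59.3% were lower, a share that became 35.6% with scaling by library size only. The log2 fold change, Bnc1tr/tr over WT throughout, was negative for 8 of the genes and positive for 2, with a median of -0.53 beside 0.018 over all genes tested. In 6 genes every Bnc1tr/tr ovary lay below every WT ovary, and in none did every Bnc1tr/tr ovary lie above. Over all genes tested 30.8% had no overlap, 15.8% with the Bnc1tr/tr ovaries lower and 15.0% with them higher. Since the comparison that chose the genes is the same, nothing was read from these shares. In whole-ovary RNA, fewer cells of a type and less RNA per cell cannot be told apart.

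**Figure D1:**
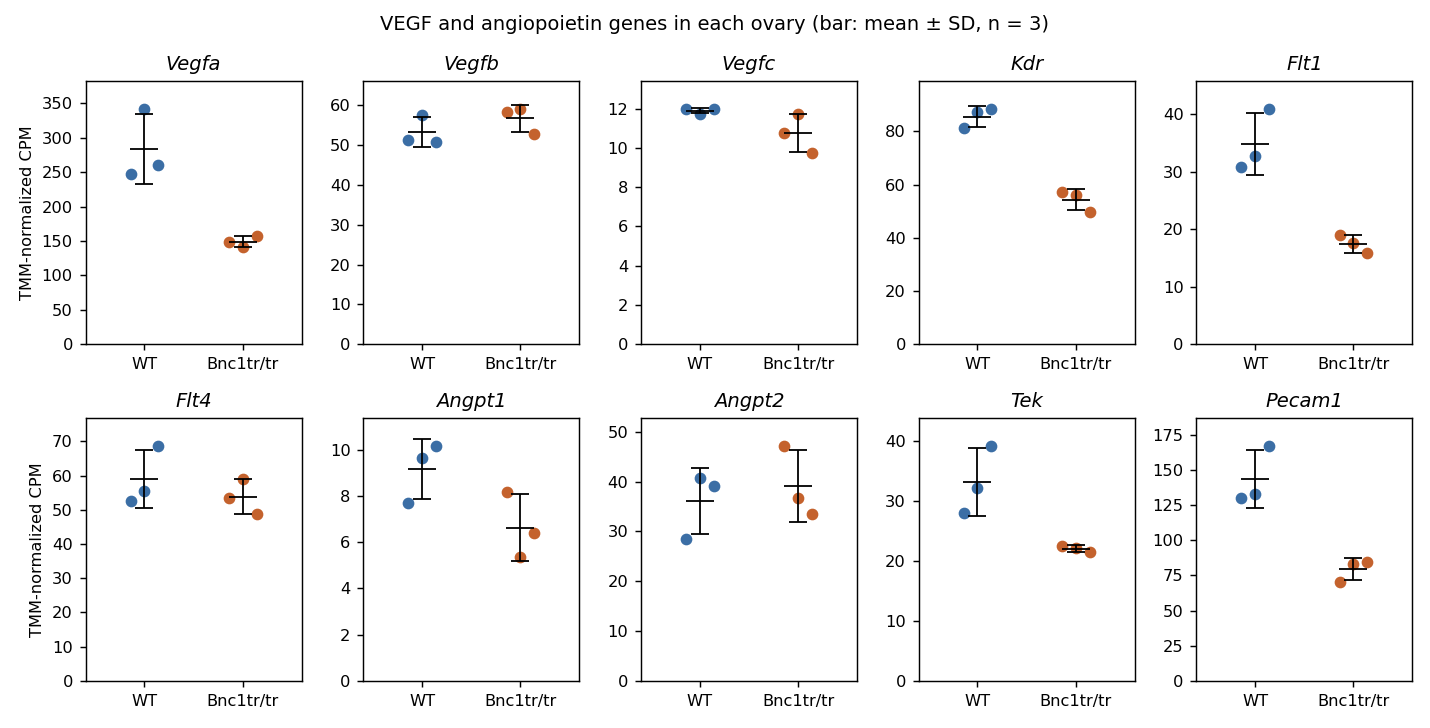
CPM after TMM normalization (vertical axis, from 0) of the 10 VEGF and angiopoietin genes in each of 3 WT and 3 Bnc1tr/tr ovaries. Points are ovaries and bars are the mean ± SD. The groups do not overlap for Vegfa, Vegfc, Kdr, Flt1, Tek and Pecam1.

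Vegfa (GRCm38, chr17:46016993-46032369, minus strand), the main ligand, was at 248, 342 and 261 CPM in WT replicates 1, 4 and 7 and at 148.5, 141 and 158 CPM in Bnc1tr/tr replicates 1, 2 and 3. All 3 mutant ovaries lay below the lowest WT ovary, and the mutant ovaries were the closer together. The mean was 283 ± 50.9 (SD, n = 3) in WT ovaries and fell to 149 ± 8.42 CPM (SD, n = 3) in the mutants, a ratio of 0.526. Its log2 fold change was -0.93 (SE 0.13), and Vegfa was called lower.

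The other VEGF ligand genes of the group, Vegfb and Vegfc, were nearer to equal. Vegfb (chr19:6982473-6987651, minus strand), a ligand of VEGFR1 that is not needed for most vessel growth, was at 51.2, 57.6 and 50.9 CPM in WT and 58.2, 59.0 and 52.8 CPM in Bnc1tr/tr ovaries. The groups overlapped, and the log2 fold change was 0.09 (SE 0.089). Vegfc (chr8:54077606-54187096, plus strand), the lymphatic growth factor, was at 11.97, 11.75 and 11.97 CPM in WT and 10.78, 11.74 and 9.76 CPM in Bnc1tr/tr ovaries. Although the groups did not overlap, the highest mutant ovary nearly met the lowest WT ovary, and Vegfc was not called (log2 fold change -0.15, SE 0.12).

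Among the receptors, Kdr and Flt1 were called lower and Flt4 was not. Kdr (chr5:75932827-75978458, minus strand) was at 81.1, 87.1 and 88.3 CPM in WT and 57.2, 56.0 and 49.7 CPM in Bnc1tr/tr ovaries. The groups were well apart, with means of 85.5 ± 3.84 (SD, n = 3) and 54.3 ± 4.04 CPM (SD, n = 3) and a log2 fold change of -0.66 (SE 0.087). Flt1 (chr5:147561604-147726011, minus strand) was at 30.8, 32.8 and 40.8 CPM in WT and 19.0, 17.6 and 15.9 CPM in Bnc1tr/tr ovaries. Of the 10 genes it had the lowest ratio, 0.503, from 34.8 ± 5.31 (SD, n = 3) to 17.5 ± 1.57 CPM (SD, n = 3). On the log2 scale the fold change of Flt1 was -0.99 (SE 0.13). The counts were summed over each gene, so the soluble and membrane-bound forms of VEGFR1 were not separated. Flt4 (chr11:49609263-49652739, plus strand) was at 52.6, 55.6 and 68.7 CPM in WT and 53.5, 59.1 and 48.9 CPM in Bnc1tr/tr ovaries. Its groups overlapped, and its log2 fold change was -0.13 (SE 0.12). Whether the change of Flt4 differed from that of Kdr or Flt1 was not tested.

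Of the angiopoietins, neither ligand was called, and their receptor was. Angpt1 (chr15:42424723-42676977, minus strand) was at 7.70, 9.67 and 10.17 CPM in WT and 8.18, 5.35 and 6.38 CPM in Bnc1tr/tr ovaries. Mutant replicate 1 lay within the WT range, and the log2 fold change was -0.47 (SE 0.20). The exons of Angpt1 overlap those of the antisense gene Gm17473 by 737 bases, and the strand setting of the counting is not given in the sources used here, so its level is uncertain. Angpt2 (chr8:18690263-18741562, minus strand) was at 28.6, 40.8 and 39.1 CPM in WT and 47.2, 36.6 and 33.5 CPM in Bnc1tr/tr ovaries. Both groups were broad and overlapped, with a log2 fold change of 0.11 (SE 0.17) that turned to -0.042 without WT replicate 1 and to -0.046 without Bnc1tr/tr replicate 1.

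Tek (chr4:94739289-94874976, plus strand) was at 27.96, 32.1 and 39.2 CPM in WT and at 22.5, 22.2 and 21.4 CPM in Bnc1tr/tr ovaries. The mutant ovaries were nearly level with one another and all below WT. The means were 33.1 ± 5.66 (SD, n = 3) and 22.1 ± 0.559 CPM (SD, n = 3), with a log2 fold change of -0.58 (SE 0.13). Tek did not pass the threshold when WT replicate 4 (-0.61) or 7 (-0.45) or Bnc1tr/tr replicate 1 (-0.60), 2 (-0.59) or 3 (-0.56) was left out, nor with scaling by library size only (-0.49).

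Pecam1 (chr11:106654217-106750628, minus strand), a junction protein of all endothelial cells that is also made by platelets and some white blood cells, was at 130, 133 and 167 CPM in WT and 70.6, 83.0 and 84.6 CPM in Bnc1tr/tr ovaries. The highest mutant ovary lay far below the lowest WT ovary. The means were 143 ± 20.6 (SD, n = 3) and 79.4 ± 7.66 CPM (SD, n = 3), and the log2 fold change was -0.85 (SE 0.12).

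Levels were set against each other per length, as CPM per kb of the merged exons of each gene. In WT ovaries the order was Vegfa at 66.1 ± 11.9 (SD, n = 3), Vegfb at 33.2 ± 2.34, Pecam1 at 23.0 ± 3.31, Angpt2 at 9.80 ± 1.80, Kdr at 9.47 ± 0.425, Flt4 at 7.16 ± 1.04, Tek at 7.02 ± 1.20, Vegfc at 4.86 ± 0.051, Flt1 at 2.58 ± 0.394 and Angpt1 at 1.76 ± 0.252 CPM per kb. The ranges of the neighbours Angpt2 and Kdr overlapped, as did those of Flt4 and Tek. In Bnc1tr/tr ovaries Vegfa, at 34.8 ± 1.97 CPM per kb (SD, n = 3), overlapped Vegfb at 35.3 ± 2.08. Pecam1 at 12.8 ± 1.23 overlapped Angpt2 at 10.6 ± 1.94 CPM per kb. Flt1 at 1.30 ± 0.116 overlapped Angpt1 at 1.28 ± 0.275 CPM per kb. Flt4 at 6.54 ± 0.620 overlapped Kdr at 6.01 ± 0.448 CPM per kb, as Tek at 4.68 ± 0.119 did Vegfc at 4.39 ± 0.404. Thus Vegfa stood clear of Vegfb in WT ovaries and not in Bnc1tr/tr ovaries.

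**Figure D2:**
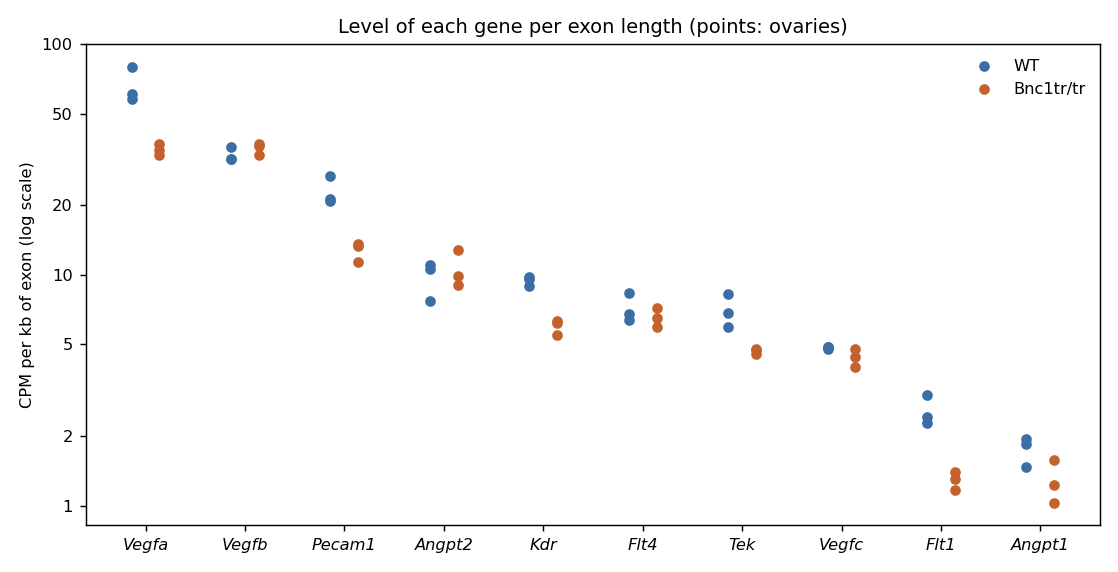
CPM per kb of exon (vertical axis, log scale) of the 10 genes, ordered by their WT mean, with 1 point per ovary. In WT ovaries Vegfa lies above Vegfb, and in Bnc1tr/tr ovaries their points overlap.

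The balance between partners was read as the difference of log2 CPM within each ovary. It was not scaled by gene length, so only its change between the genotypes is read. Angpt2 exceeded Angpt1 by 1.88, 2.07 and 1.93 in WT and by 2.52, 2.76 and 2.38 in Bnc1tr/tr ovaries on the log2 scale. Every mutant ovary had the larger excess, with means of 1.96 ± 0.097 (SD, n = 3) and 2.55 ± 0.19 (SD, n = 3), a difference of 0.59. The uncertain level of Angpt1 carries over to this difference. Kdr exceeded Flt1 by 1.31 ± 0.17 (SD, n = 3) in WT and 1.63 ± 0.041 (SD, n = 3) in Bnc1tr/tr ovaries, also without overlap. How often other pairs of genes show no overlap was not computed, so the lack of overlap is given as a description. Vegfa relative to Flt1 differed by 0.070 between the genotypes, and the groups overlapped. That value was 0.25 without WT replicate 4, 0.13 and 0.12 without Bnc1tr/tr replicates 1 and 2, and turned to -0.10 without WT replicate 7 and -0.040 without Bnc1tr/tr replicate 3. Tek relative to Tie1, a related orphan receptor, differed by -0.015 with overlap. It ran from -0.12 without WT replicate 7 to 0.054 without WT replicate 1, so no direction can be given for either pair.

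A list of 35 endothelial markers other than the 10 genes was read beside them. In it 14 of 35 markers were called, 13 lower and 1 higher, beside 7.06% of all genes tested. Every Bnc1tr/tr ovary lay below every WT ovary in 23 markers and above in 2, Vwf and Plvap. Over all genes tested 15.8% lay lower and 15.0% higher in this way. The median log2 fold change of the markers was -0.55, with 30 negative and 5 positive. Their summed level was 1859 to 2369 CPM in WT and 1423 to 1547 CPM in Bnc1tr/tr ovaries, and no marker was at 0 in every ovary. Their part in the lower VEGF and angiopoietin transcripts was not tested. Taken relative to the mean log2 CPM of these markers in the same ovary, the level of Flt1 differed by -0.51, that of Vegfa by -0.44 and that of Pecam1 by -0.38 in Bnc1tr/tr ovaries, each without overlap. For Kdr the difference was -0.19, for Tek -0.098 and for Angpt1 -0.004, and these overlapped. On the same relative scale Vegfc (0.32), Flt4 (0.34), Vegfb (0.56) and Angpt2 (0.59) were higher in every Bnc1tr/tr ovary. The marker mean was itself lower by 0.47 in Bnc1tr/tr ovaries, which raises every gene on this scale. The share of all genes without overlap on this scale was not computed, so the lack of overlap is given as a description. VEGF-A is made by granulosa and luteal cells, so this scale gives no level of Vegfa per endothelial cell. Without that scaling the log2 fold changes were -0.15 for Vegfc, -0.13 for Flt4, 0.09 for Vegfb and 0.11 for Angpt2. With the median of the markers in place of their mean, the difference was -0.19 for Tek and -0.47 for Pecam1. Single ovaries moved some of these values. The difference was -0.29 for Vegfa without WT replicate 4 and -0.12 for Kdr without Bnc1tr/tr replicate 3. For Tek it was -0.057 without WT replicate 7, and for Angpt1 it ran from -0.20 without Bnc1tr/tr replicate 1 to 0.16 without Bnc1tr/tr replicate 2.

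**Figure D3:**
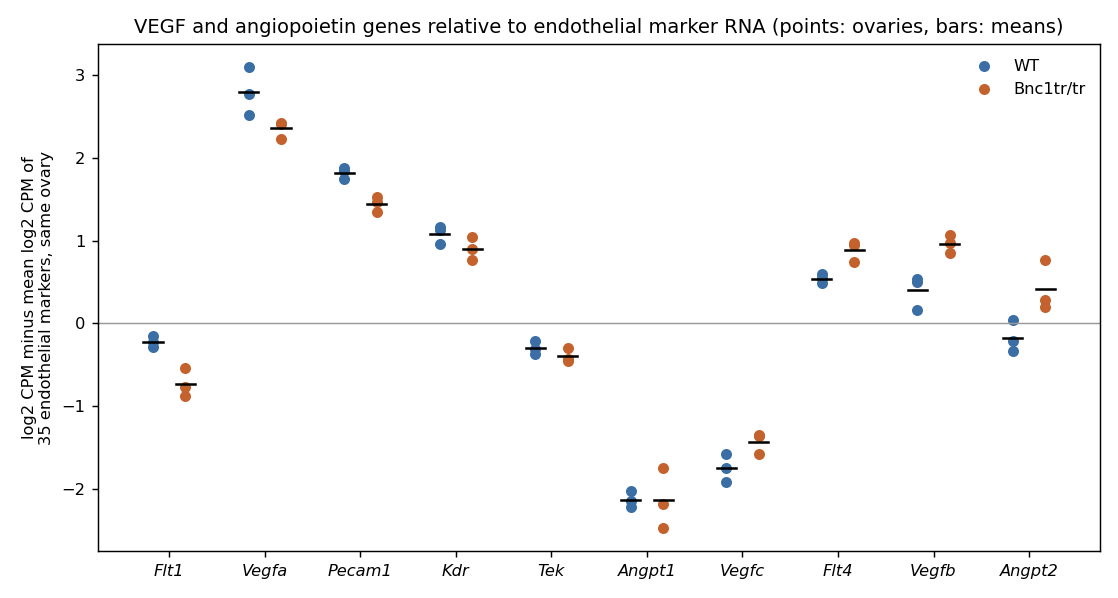
Log2 CPM of each of the 10 genes minus the mean log2 CPM of 35 endothelial markers in the same ovary (vertical axis), with 1 point per ovary and bars at the means. Flt1, Vegfa and Pecam1 lie lower, and Vegfc, Flt4, Vegfb and Angpt2 higher, in all Bnc1tr/tr ovaries on this scale, whose marker mean is itself lower in them.

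Among the endothelial markers called, those with the largest fall were Myct1, an endothelial membrane protein, Icam2, an adhesion molecule, Cd93, a lectin-like receptor of endothelium, and Notch4, a Notch receptor of arteries. Cd93 was at 104, 97.6 and 102 CPM in WT and 42.1, 53.0 and 52.0 CPM in Bnc1tr/tr ovaries. The log2 fold changes, from edgeR's quasi-likelihood test, were -1.10 for Myct1 (SE 0.14, adjusted p = 0.0052), -1.09 for Icam2 (SE 0.15, adjusted p = 0.00747), -1.05 for Cd93 (SE 0.10, adjusted p = 0.00269) and -0.97 for Notch4 (SE 0.12, adjusted p = 0.00528). Without WT replicate 4 the adjusted p of Icam2 became 0.056 in edgeR. Of the most abundant markers, Cdh5 (VE-cadherin) had a log2 fold change of -0.73 (SE 0.14, edgeR adjusted p = 0.0248), and Eng (endoglin), at -0.60, did not pass (SE 0.14, edgeR adjusted p = 0.0501). The edgeR adjusted p of Cdh5 became 0.101 without WT replicate 4, 0.0677 without WT replicate 7, 0.0543 without Bnc1tr/tr replicate 1 and 0.0561 without Bnc1tr/tr replicate 2, and that of Eng became 0.0253 without WT replicate 1. The 1 marker called higher was Vwf, von Willebrand factor, named after its values were seen. Vwf was at 21.5, 15.9 and 18.9 CPM in WT and 31.7, 37.9 and 25.3 CPM in Bnc1tr/tr ovaries, with a log2 fold change of 0.75 (SE 0.17, edgeR adjusted p = 0.0415). Its edgeR adjusted p lay between 0.0634 and 0.167 when WT replicate 1, 4 or 7 or Bnc1tr/tr replicate 1 or 2 was left out. Plvap, also named after its values were seen, was at 21.8, 26.9 and 30.4 CPM in WT and 32.6, 48.2 and 37.15 CPM in Bnc1tr/tr ovaries. It was not called (log2 fold change 0.58, SE 0.17, edgeR adjusted p = 0.0903).

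Of 7 other genes of the VEGF and angiopoietin families, none was called by edgeR, 3 had an unadjusted p under 0.05, and DESeq2 called 1. The placental growth factor gene Pgf had a log2 fold change of -0.87 (SE 0.36, edgeR adjusted p = 0.191) at a low level, between 1.13 and 4.48 CPM. Tie1 was at 80.8, 97.4 and 143 CPM in WT and 68.9, 74.4 and 69.2 CPM in Bnc1tr/tr ovaries, without overlap, with a log2 fold change of -0.60 (SE 0.19, edgeR adjusted p = 0.107) that was -0.34 without WT replicate 7. Ptprb, a phosphatase that restrains TIE2, had a log2 fold change of -0.39 (SE 0.16, edgeR adjusted p = 0.202), or -0.21 without WT replicate 7, and Angpt4 one of 0.52 (SE 0.24, edgeR adjusted p = 0.223). For the co-receptors Nrp1 and Nrp2 the values were 0.03 (SE 0.12, edgeR adjusted p = 0.895) and 0.26 (SE 0.12, edgeR adjusted p = 0.217). Vegfd, listed under its older symbol Figf, was at -0.02 (SE 0.14, edgeR adjusted p = 0.934).

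**Figure D4:**
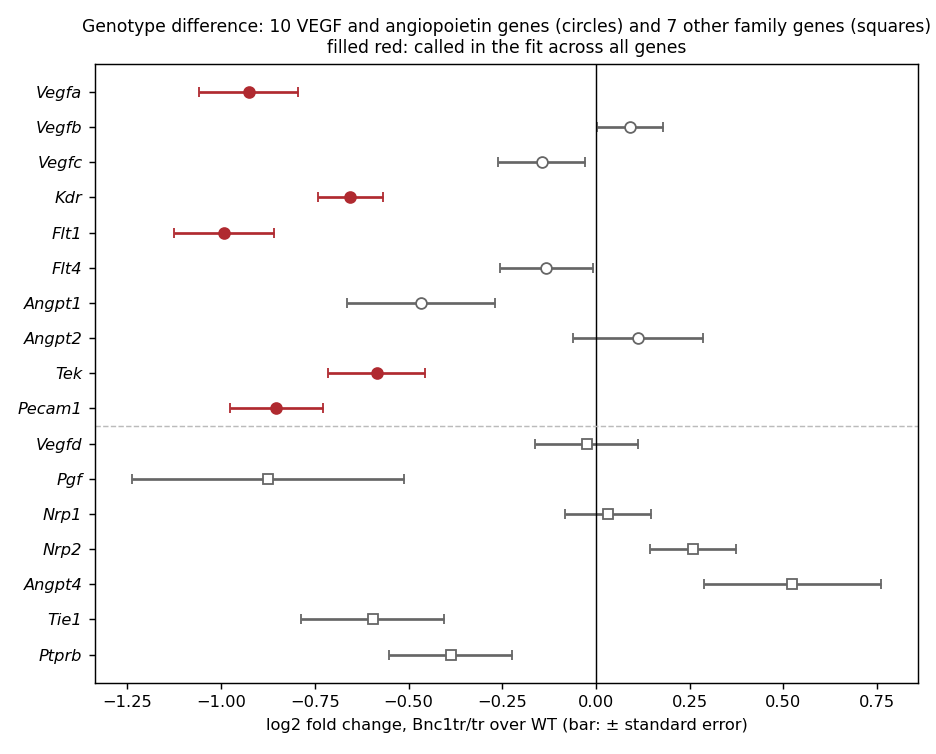
Log2 fold change, Bnc1tr/tr over WT (horizontal axis), of the 10 VEGF and angiopoietin genes (circles) and 7 other family genes (squares), with bars of ± 1 standard error. Filled red symbols are the 5 genes called, all of them left of 0.

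Among genes of sprouting vessels all 12 had a negative log2 fold change (median -0.58), and 3 of them were called, beside 7.06% of all genes tested. In 6 of them every Bnc1tr/tr ovary lay below every WT ovary, beside 15.8% of all genes tested. Igfbp3, an IGF binding protein of tip cells and matrix, changed by -0.98 (edgeR adjusted p = 0.0059), Dll4, the Notch ligand of tip cells that VEGF induces, by -0.88 (edgeR adjusted p = 0.00372), and the netrin receptor gene Unc5b by -0.73 (edgeR adjusted p = 0.013). Dll4 was at 30.3, 30.4 and 28.4 CPM in WT and 14.8, 16.5 and 17.3 CPM in Bnc1tr/tr ovaries. The groups were far apart, and the calls of Dll4 and Igfbp3 held under all 12 alternatives, whereas Unc5b missed the threshold without Bnc1tr/tr replicate 3 (edgeR adjusted p = 0.0501). The 2 most abundant genes of the list, Nid2 (nidogen of basement membranes) and Pdgfb (which recruits pericytes), were at -0.40 (edgeR adjusted p = 0.132) and -0.27 (edgeR adjusted p = 0.113).

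Among the markers of mural cells, the pericytes and smooth muscle around vessels, 5 of 14 were called, all lower, with a median log2 fold change of -0.48. Over all genes tested 7.06% were called. Every Bnc1tr/tr ovary lay below every WT ovary in 8 markers and above in 1, Des, beside 15.8% and 15.0% of all genes tested. Notch3, the Notch receptor of mural cells, changed most, from 75.0, 76.7 and 110 CPM in WT to 41.0, 35.9 and 33.9 CPM in Bnc1tr/tr ovaries (log2 fold change -1.24, edgeR adjusted p = 0.0059). Ndufa4l2, a mitochondrial protein of pericytes, changed by -0.91 (edgeR adjusted p = 0.0386), Mcam (CD146) by -0.74 (edgeR adjusted p = 0.011) and Cspg4 (NG2) by -0.71 (edgeR adjusted p = 0.0175). The smooth muscle genes Acta2 (-0.03, edgeR adjusted p = 0.866) and Tagln (0.14, edgeR adjusted p = 0.706) were not called. The summed level of the list was 2213 to 2407 CPM in WT and 2075 to 2281 CPM in Bnc1tr/tr ovaries, which overlapped. Most of that sum came from Acta2, Myh11 and Tagln, with WT means of 829, 404 and 458 CPM. The mean log2 CPM of the 14 genes, which weighs them equally, was lower by 0.38 in Bnc1tr/tr ovaries, without overlap. Leaving out WT replicate 4 took the edgeR adjusted p of Ndufa4l2 to 0.138, of Mcam to 0.056 and of Cspg4 to 0.0796. That of Ndufa4l2 was also 0.126 without WT replicate 7, 0.0721 without Bnc1tr/tr replicate 1 and 0.0981 without Bnc1tr/tr replicate 3, and that of Cspg4 was 0.0595 without WT replicate 1 and 0.0692 without WT replicate 7.

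Of 8 lymphatic markers, 2 were called, both higher, beside 7.06% of all genes tested, and the median log2 fold change was 0.34. In Lyve1 and Pdpn every Bnc1tr/tr ovary lay above every WT ovary, and in Itga9 and Ccl21a every one lay below. Lyve1, a hyaluronan receptor of lymphatic endothelium and some macrophages, was at 7.77, 9.49 and 7.86 CPM in WT and 20.3, 16.2 and 12.8 CPM in Bnc1tr/tr ovaries (log2 fold change 0.97, edgeR adjusted p = 0.0247). Pdpn, podoplanin, was at 47.4, 47.7 and 46.9 CPM in WT and 59.4, 58.7 and 62.4 CPM in Bnc1tr/tr ovaries (log2 fold change 0.35, edgeR adjusted p = 0.033). Both rises were fragile. Lyve1 had an edgeR adjusted p of 0.0778, 0.0796 and 0.0983 without WT replicates 1, 4 and 7, and Pdpn had 0.102, 0.135 and 0.112 without the same ovaries, 0.0511 without Bnc1tr/tr replicate 2, 0.114 without Bnc1tr/tr replicate 3 and 0.0531 with no filter. Of the abundant genes of the list, the integrin gene Itga9 was at -0.53 (edgeR adjusted p = 0.0511) and the chemokine gene Ccl21a at -0.39 (edgeR adjusted p = 0.0852). The summed lymphatic level was 448.6 to 577.5 CPM in WT and 404.6 to 440.1 CPM in Bnc1tr/tr ovaries, lower without overlap. Itga9 alone gave 272 to 379 CPM of it in WT and 210 to 224 CPM in Bnc1tr/tr ovaries, and the mean log2 CPM of the 8 genes, which weighs them equally, was higher by 0.22 in Bnc1tr/tr ovaries.

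Of the genes that act after the receptors, 2 of 17 were called, both lower, beside 7.06% of all genes tested. The median log2 fold change of the list was -0.11. Nos3, endothelial nitric oxide synthase, was at 44.5, 48.2 and 55.2 CPM in WT and 31.4, 26.9 and 24.7 CPM in Bnc1tr/tr ovaries (log2 fold change -0.83, edgeR adjusted p = 0.00916). Ets1, a transcription factor of endothelial and lymphoid cells, changed by -0.67 (edgeR adjusted p = 0.0185). Their edgeR adjusted p became 0.0532 for Nos3 and 0.0951 for Ets1 without WT replicate 4, and that of Ets1 was 0.0566 without WT replicate 7 and 0.0587 without Bnc1tr/tr replicate 3. Neither Foxo1 (0.43, edgeR adjusted p = 0.468) nor Grb14 (0.26, edgeR adjusted p = 0.422), the most abundant genes of the list, was called. Foxo1 was at 677 CPM in Bnc1tr/tr replicate 1 and at 264 and 317 CPM in the other two mutant ovaries, and its log2 fold change was -0.10 without that ovary.

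Among inhibitors of vessel growth, none of 12 was called by edgeR, 3 had an unadjusted p under 0.05, and DESeq2 called 2. Thbs1, thrombospondin 1, was at 0.21 (edgeR adjusted p = 0.645) and Timp3, which blocks VEGFR2, at -0.19 (edgeR adjusted p = 0.258). Of 22 genes of the response to low oxygen, 1 was called, beside 7.06% of all genes tested, and the median log2 fold change was -0.072. That gene was Slc2a1, the glucose transporter GLUT1, at 41.2, 47.7 and 64.4 CPM in WT and 32.4, 31.2 and 31.9 CPM in Bnc1tr/tr ovaries (log2 fold change -0.68, edgeR adjusted p = 0.0431). The adjusted p of Slc2a1 was 0.0652 with library size only and 0.0531 in limma-voom. It was 0.13 without WT replicate 4, 0.0673 without WT replicate 7 and 0.0828, 0.089 and 0.114 without Bnc1tr/tr replicates 1, 2 and 3 in edgeR. Ldha (0.12, edgeR adjusted p = 0.562) and Epas1 (0.01, edgeR adjusted p = 0.984), the most abundant of these genes, were not called. Vegfa, itself a gene that low oxygen raises, had a log2 fold change of -0.93 beside that median, a difference that was not tested.

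The 8 lists named above held 123 different genes tested, of which 26 were called (21.1%), 23 lower and 3 higher, beside 7.06% of all genes tested. Since the lists were chosen with earlier results of these data known, nothing was read from these shares. Without WT replicate 4 the count of list genes called was 10, without WT replicate 7 it was 15, and without Bnc1tr/tr replicate 3 it was 17. Tie1 and Ptprb stood in both the family and the endothelial list, Nos3 in the endothelial and the downstream list, and Adm in the sprouting and the low-oxygen list.

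Markers of other cell types of the ovary were read as well, and the luteal list differed most. The share of calls over all genes tested was 7.06%. Of 12 luteal markers 10 were called, all lower, with a median log2 fold change of -1.69. Their summed level was 24020 to 29100 CPM in WT and 7525 to 12850 CPM in Bnc1tr/tr ovaries. Most of that sum came from the steroid synthesis genes Cyp11a1 and Hsd3b1, with WT means of 10160 and 8430 CPM. The summed luteal level did not overlap between the genotypes, whereas those of the granulosa, oocyte, theca, macrophage and blood lists did. Of the granulosa markers 1 of 10 was called, higher, and the summed level was 3556 to 4761 CPM in WT and 3967 to 6077 CPM in Bnc1tr/tr ovaries. Of the oocyte markers 3 of 10 were called, all higher, with 527.5 to 689 CPM in WT and 658.4 to 1006 CPM in Bnc1tr/tr ovaries. No theca marker of 6 was called by edgeR, with 2 at an unadjusted p under 0.05 and 2 called by DESeq2, and the summed level was 1628 to 1970 CPM in WT and 1818 to 2712 CPM in Bnc1tr/tr ovaries. No macrophage marker of 8 was called by edgeR or DESeq2, with 1 at an unadjusted p under 0.05, and 361.4 to 380.1 CPM in WT and 229.1 to 440.8 CPM in Bnc1tr/tr ovaries. The same was true of 5 blood markers, with 1 at an unadjusted p under 0.05, and 124.7 to 206 CPM in WT and 61.4 to 226 CPM in Bnc1tr/tr ovaries. No marker of these lists was at 0 in every ovary, and their part in the VEGF and angiopoietin results was not tested.

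**Figure D5:**
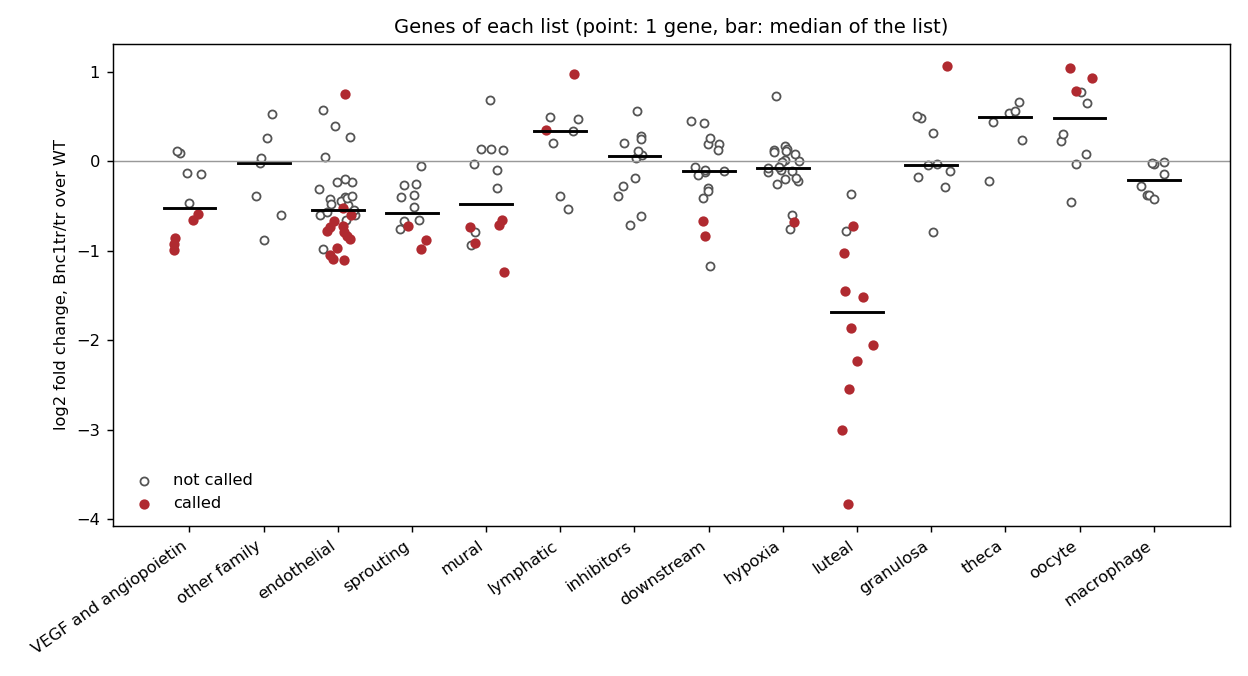
Log2 fold change, Bnc1tr/tr over WT (vertical axis), of the genes of each list, with 1 point per gene, filled red where called, and a bar at the list's median. The luteal list lies lowest (median -1.69). The median of the VEGF and angiopoietin genes (-0.53) lies near those of the endothelial (-0.55), sprouting (-0.58) and mural (-0.48) lists.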

How the data were processed

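Total RNA of whole ovaries was extracted with TRIzol, and single-end libraries were sequenced on the Ion Proton platform. Each labelled sample is called an ovary here. Its count column holds 1 set of counts, and how many ovaries or sequencing runs it stands for is not given in the labels. The authors deposited raw read counts per gene symbol, as whole numbers without normalization. The submitters' processing notes name the builds mm10 and Sscrofa10.2, with no role given. The aligner, the counter and the strand setting are not given in the sources used here.

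The 10 genes, the lists read beside them and the comparison were chosen with earlier results of these data known. The lists rest on general knowledge, and 5 symbols were matched through RefSeq synonyms. Counts were filtered with filterByExpr (minimum count 10), scaled by TMM and compared with edgeR 4.0.16 (glmQLFit, glmQLFTest, R 4.3.3) in two-sided tests. Adjustment by Benjamini-Hochberg covered all 19423 genes, at a threshold of 0.05. The common biological coefficient of variation was 0.186. CPM were computed with TMM factors, and log2 CPM with a prior count of 2. Levels per kb and positions used GRCm38 with GENCODE M21.

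Named genes were all 7 other family genes and, in each vessel list, the 4 called genes with the largest change at a mean of at least 1 CPM and the 2 most abundant. Nearest patterns were sought among genes with a mean of at least 5 CPM. Alternatives were DESeq2's size factors, library size only, no filter, at least 10 counts in every ovary, DESeq2 1.42.0, limma-voom (limma 3.58.1), leaving out each ovary in turn, a prior count of 0.5 and the median of the endothelial markers.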

Additional observations from a re-analysis of the deposited data

How the results depend on the processing

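The direction of Vegfa, Kdr, Flt1, Tek and Pecam1 held under all 12 alternatives, with log2 fold changes of -1.02 to -0.78, -0.70 to -0.56, -1.08 to -0.87, -0.70 to -0.45 and -0.93 to -0.74. Between 4 and 5 of the 10 genes passed the threshold. The log2 fold changes ran from 0.050 to 0.19 for Vegfb, -0.21 to -0.046 for Vegfc, -0.22 to -0.017 for Flt4 and -0.65 to -0.34 for Angpt1. Of all genes, 1372 were called, 2420 with DESeq2 and 320 to 1282 with 1 ovary left out (320 without WT replicate 4, 518 without WT replicate 7, 634 without Bnc1tr/tr replicate 3 and 781 without WT replicate 1). Of the 123 list genes, 26 were called, 43 with DESeq2 and 10 to 26 with 1 ovary left out. Scaling by library size only took the share of calls that were lower from 59.3% to 35.6%, and the median log2 fold change of all genes from 0.018 to 0.118. Of the 10 genes, those without overlap between genotypes numbered 5 in place of 6 under that scaling and under DESeq2's size factors.

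Values near 0 changed sign. With library size only, Vegfd (Figf) was at 0.075 and Acta2 at 0.066, and with limma-voom Epas1 was at -0.045. With 1 ovary left out the log2 fold changes ran from -0.046 to 0.21 for Angpt2, from -0.12 to 0.056 for Vegfd (Figf), from -0.091 to 0.13 for Nrp1, from -0.10 to 0.034 for Acta2, from -0.064 to 0.42 for Thbs1, from -0.100 to 0.67 for Foxo1 and from -0.38 to 0.18 for Epas1.

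No paired analysis was possible because the genotypes share only the replicate number 1 and no label says which samples were littermates. With 3 ovaries per genotype, small changes of Vegfb, Vegfc, Flt4 and Angpt2 cannot be told from none. The log2 fold change of Angpt1 was larger, at -0.47 (SE 0.20), and did not pass the threshold.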

Other observations

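The genes whose pattern lay nearest to 3 of the VEGF and angiopoietin genes were sought among 13070 genes, by the root mean square difference of centred log2 CPM over the 6 ovaries. Nearest to Vegfa were Stard4, a carrier of cholesterol (0.072), Plekhd1 (0.086) and Bdh1, an enzyme of ketone bodies (0.091), against an SD of Vegfa itself of 0.53. For Kdr they were Tmem203 (0.054), Pam, which amidates peptides (0.057), and Dgat1, which makes triglycerides (0.059), against an SD of 0.37. For Angpt2 they were BC005764 (0.052), Arl5b (0.069) and Ebf4 (0.073), against an SD of 0.25. With so many candidates and 6 ovaries that fall into the genotypes, close patterns are easily found, and nothing is said of shared function.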
